A study of Mus musculus with 18 samples.

Results

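The Cyp2c genes of the mouse liver encode cytochrome P450 enzymes, and 10 of them (Cyp2c29, Cyp2c37, Cyp2c38, Cyp2c39, Cyp2c40, Cyp2c44, Cyp2c50, Cyp2c54, Cyp2c55 and Cyp2c70) were followed here between livers of mice on linseed oil and on palm oil. Members were taken by gene name from the annotation of the array, and all probes of each were used. The array held 13 probes for 9 of the 10 genes, among 39429 non-control probes for 31709 names. No probe was named Cyp2c40. Among the probes named for Cyp2c genes, its transcript was listed only in the accessions of 1 Cyp2c67 probe and 1 Cyp2c68 probe. No level of Cyp2c40 alone can therefore be given. Cyp2c44 is named Cyp2c23 in the RefSeq table, and the array's name is kept.

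Liver RNA came from male mice of the inbred strain C57BL/6J. The LIN group (8 mice) ate a high-fat diet made with linseed oil, whose fat was 66.7% polyunsaturated, with 49.7% alpha-linolenic acid, an n-3 fatty acid, and 9.7% saturated. The PALM group (10 mice) ate the same amount of fat as palm oil, 55.6% saturated and 8.8% polyunsaturated. In both diets 51.1% of the energy was lipid, no group received a low-fat diet, and feeding ran for 5 weeks, between the ages of 8 and 13 weeks.

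Cyp2c enzymes sit in the endoplasmic reticulum, take electrons from the reductase Por, and add oxygen to fatty acids, retinoids, steroids and drugs. Those known as epoxygenases turn arachidonic acid into epoxyeicosatrienoic acids and turn the n-3 fatty acids eicosapentaenoic and docosahexaenoic acid into the matching epoxides, which epoxide hydrolases then open to diols. Alpha-linolenic acid is the dietary precursor of those n-3 fatty acids. Cyp2c70 stands apart by function: in mice it hydroxylates bile acids to the muricholic acids of rodent bile.

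All Cyp2c probes lay on chromosome 19 of build mm9. Those of 12 genes, the members apart from Cyp2c44 among them, fell within 1.11 Mb, and that of Cyp2c44 lay 3.85 Mb beyond the last of them. Genes so alike in sequence can share signal on an array, so the stretches that set probes apart are shown first. The Cyp2c29 probe (chr19:39403642-39403701, plus strand) and 1 of the Cyp2c37 probes (chr19:40084382-40084441, plus strand) cover the same part of their genes over 31 bases, of which 27 are identical. Capitals mark the identical bases, and lower case within them the 4 that differ.
Cyp2c29 A_51_P103706: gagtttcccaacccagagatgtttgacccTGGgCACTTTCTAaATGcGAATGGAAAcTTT
Cyp2c37 A_55_P1964483: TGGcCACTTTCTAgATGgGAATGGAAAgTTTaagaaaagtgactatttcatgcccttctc

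The other Cyp2c37 probe (chr19:40086467-40086526, plus strand) and the Cyp2c50 probe (chr19:40188154-40188213, plus strand) overlap by 40 bases with 35 identical, and 30 bases of that overlap are shown in the same way.
Cyp2c37 A_51_P498882: CACACTGGACAcACTGacTTTTATCCAgTT
Cyp2c50 A_55_P2020477: CACACTGGACAtACTGctTTTTATCCAtTT

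A Cyp2c67 probe (chr19:39683429-39683488, minus strand) and the Cyp2c68 probe (chr19:39763420-39763479, minus strand) differ at 4 of 59 overlapping bases. Neither gene is a member. The probes are shown because their readings follow below and the Cyp2c68 probe also lists Cyp2c40.
Cyp2c67 A_55_P1962661: ACaCAGTCCCAGaAATTCCATCTATATTCC
Cyp2c68 A_55_P2058433: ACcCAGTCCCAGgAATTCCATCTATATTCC

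The Cyp2c70 probe (chr19:40227969-40228028, minus strand) was less than 75% identical to any other Cyp2c probe where they aligned best over 20 or more bases. Its first 30 bases are given because it carries the difference described next, with no part in capitals. Probes were compared only with each other, and signal from other Cyp2c transcripts was not tested.
Cyp2c70 A_51_P134142: cttcttctgtgagcaaaaaggtcctcctgt

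One 1-colour array was hybridised per liver. Values are log2 of the background-subtracted intensity minus the 75th percentile of the array, so they rank mice for a probe and not one probe against another. Differences are LIN minus PALM on that log2 scale, ± SE, from limma fitted over all genes, with Benjamini-Hochberg adjusted p. On each array 17258 to 22445 probes were well above background. The image software had marked 238 to 1703 spots per array as uneven or outlying, and the fit was made with marked spots left out and with them kept. The arrays fell into 5 groups by scan date, called slides here, with both diets on each. Of 6 hepatocyte markers 5 were measured (Alb, Apoa1, Cps1, Hnf4a, Ttr) and none passed in limma, nor did any marker of the 11 other cell and tissue lists, with 2 pericentral hepatocyte markers and Cfd at an unadjusted p under 0.05. Cfd, the 1 of 5 adipocyte markers that was measured, ranged from 0.84 to 5.17 in LIN livers, against −3.04 to 3.34 in PALM livers (2.54 ± 0.88, limma adjusted p = 0.262), and its part in the results was not tested. In whole tissue, fewer cells of a type and less RNA per cell cannot be told apart.

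Cyp2c70 was the member that differed between the diets: it was 1.57-fold lower in livers of mice on linseed oil. Its level was 4.90 at the lowest, 5.10 at the median and 5.51 at the highest in LIN livers, against 5.53, 5.79 and 6.03 in PALM livers. Every LIN liver was below every PALM liver, by a narrow margin at the closest pair. The means were 5.17 ± 0.25 in LIN livers (SD, n = 8) and 5.81 ± 0.15 in PALM livers (SD, n = 10). The difference was −0.65 ± 0.10 (95% interval −0.85 to −0.44, limma adjusted p = 0.00233). With marked spots kept, 1 of 9 members tested was called, against 0.901% of the 16544 genes tested, and 0.218% of genes were called lower on linseed oil. Separation of the groups in this direction occurred in 9 genes, 0.0544% of those tested.

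**Figure D1:**
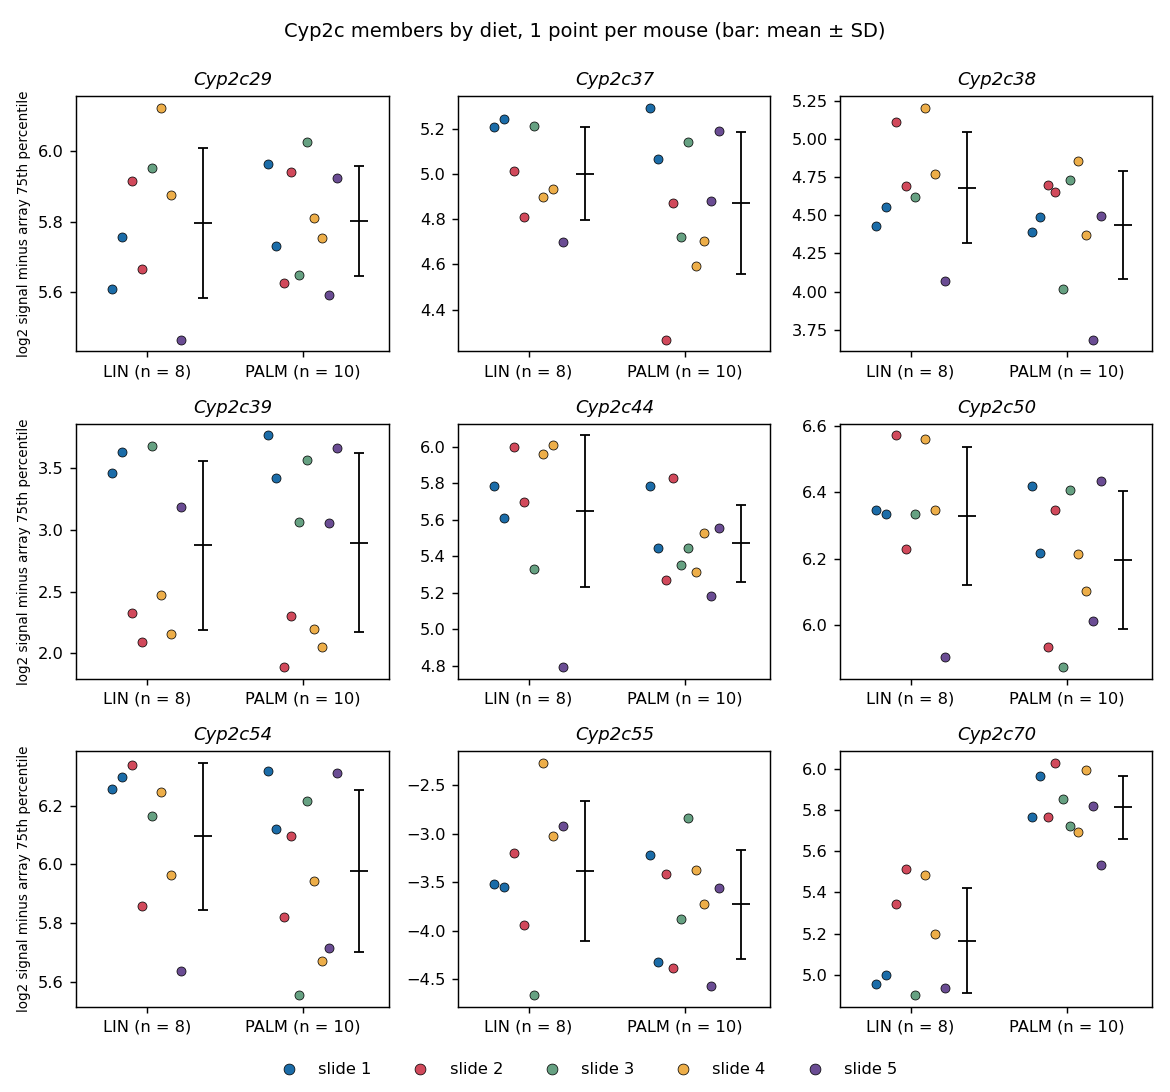
Level of each Cyp2c member in every liver (log2 signal minus the 75th percentile of the array), LIN (n = 8) left of PALM (n = 10), 1 point per mouse, coloured by slide, with mean ± SD. The groups separate for Cyp2c70, with LIN livers between 4.90 and 5.51 and PALM livers between 5.53 and 6.03, and overlap for the other 8.

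With marked spots left out, Cyp2c70 could not be tested, because its spot was marked on 3 of 8 LIN arrays and 5 of 10 PALM arrays and fewer than 6 values remained in each diet. The 5 unmarked LIN values ran from 4.90 to 5.49 and the 5 unmarked PALM values from 5.76 to 6.03, and again did not overlap; the unmarked PALM values came from slides 1 to 3 alone. When 5 values per diet were enough, an alternative added after the data had been seen, Cyp2c70 was called. With marked spots left out as first set, 7 members were tested and 0 were called by limma, 0 also at an unadjusted p under 0.05, against 0.759% of 15951 genes called and 10.2% of genes at an unadjusted p under 0.05.

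Within slides, Cyp2c70 was lower in LIN livers on 5 of 5 slides, by −0.89 to −0.47. Its LIN values were higher on slides 2 and 4, where they averaged 5.43 and 5.34, than on slides 1, 3 and 5, where they averaged 4.97, 4.90 and 4.93. PALM means per slide stayed between 5.68 and 5.90. With slide as a fixed block the difference was −0.68 (limma adjusted p = 0.00144). Without slide 1 it was −0.57 and the adjusted p was 0.0655, so the call, though not the direction, rests on that slide. A test for a change of at least 1.5-fold did not call it (limma treat, adjusted p = 1).

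**Figure D2:**
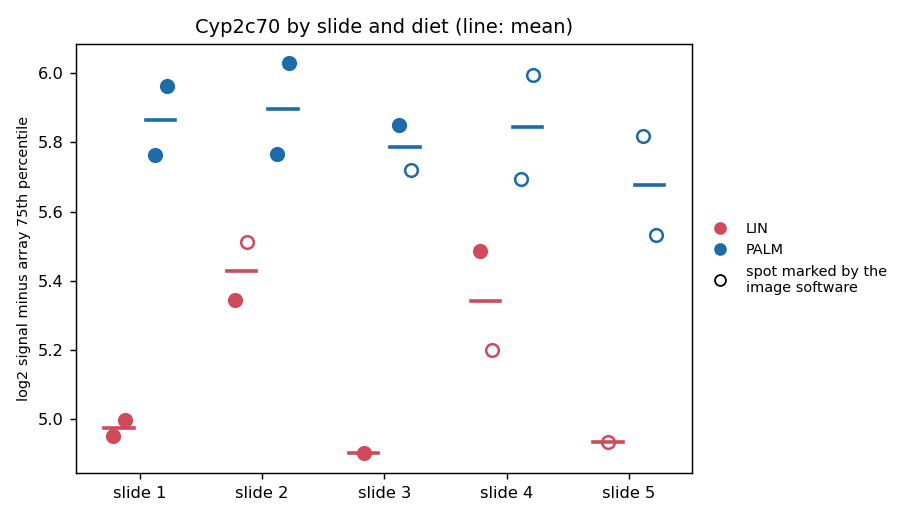
Cyp2c70 (log2 signal minus the 75th percentile of the array) by slide, LIN in red left of PALM in blue, with lines at the means of each diet and open points for marked spots. LIN lies below PALM on each of the 5 slides. Slide 1 has no marked spot and slide 5 no unmarked one, and the unmarked PALM values come from slides 1 to 3.

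Cyp2c70 acts in the bile acid pathway, so 2 other enzymes of that pathway are given, chosen after their values had been seen. Cyp7a1, which starts bile acid synthesis, was at 1.14 ± 0.58 in LIN livers, against 2.14 ± 0.40 in PALM livers (SD, n = 8 and 10). It was lower in LIN livers by −0.998 ± 0.22 (limma adjusted p = 0.0347). Cyp8b1, which makes cholic acid, was at 1.15 ± 0.78 in LIN livers, against 1.34 ± 0.48 in PALM livers (−0.20 ± 0.28, limma adjusted p = 0.866).

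Among the members known as epoxygenases, none passed in limma in either fit, and 0 had an unadjusted p under 0.05 by their brightest kept probe. The other 8 members had differences from −0.02 to 0.34, and the median over all 9 was 0.13, beside −0.0017 over all genes. The values below are from the fit with marked spots kept.

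Cyp2c29, an abundant hepatic epoxygenase, has 10 spots on each array and had the narrowest interval of the members. It ranged from 5.47 to 6.12 with a median of 5.82 in LIN livers, and from 5.59 to 6.03 with a median of 5.78 in PALM livers. The groups overlapped over nearly their whole range. The difference was −0.01 ± 0.09 (95% interval −0.19 to 0.18, limma adjusted p = 0.990), and this interval covers changes of up to 1.13-fold upward. Its sign turned in 10 of 38 other settings.

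Cyp2c50, Cyp2c54 and Cyp2c37, which form arachidonic acid epoxides when expressed in cells, lie beside each other on the chromosome, next to Cyp2c70. Cyp2c50 had a median of 6.34 in LIN livers (5.90 to 6.57), against 6.22 in PALM livers (5.87 to 6.43), with a difference of 0.13 ± 0.10 (95% interval −0.07 to 0.34, limma adjusted p = 0.699). Cyp2c54, by its brightest probe, had a median of 6.21 in LIN livers (5.64 to 6.34), against 6.02 in PALM livers (5.55 to 6.32), with a difference of 0.12 ± 0.12 (95% interval −0.14 to 0.38, limma adjusted p = 0.802). Cyp2c37 had a median of 4.97 in LIN livers (4.70 to 5.24), against 4.88 in PALM livers (4.27 to 5.29), with a difference of 0.13 ± 0.13 (95% interval −0.13 to 0.39, limma adjusted p = 0.785). All 3 leaned upward in LIN livers by less than the spread between mice, and each was higher on 4 of 5 slides. The upper bounds leave room for rises of up to 1.31-fold.

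Other probes of these genes read much the same. The second Cyp2c37 probe differed by 0.01 ± 0.17, and its values followed those of the first over the 18 arrays (Pearson r = 0.89, Spearman rho = 0.83). The 2 further Cyp2c54 probes differed by 0.10 ± 0.20 and 0.02 ± 0.14. The first of these has ends 22582 bases apart on the genome (chr19:40122119-40144700, minus strand) and shares 42 bases, in capitals, with the other (chr19:40144659-40144718, minus strand).
Cyp2c54 A_52_P154580: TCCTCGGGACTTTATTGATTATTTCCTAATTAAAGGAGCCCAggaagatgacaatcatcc
Cyp2c54 A_55_P2158547: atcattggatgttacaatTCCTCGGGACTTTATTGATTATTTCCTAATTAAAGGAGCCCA

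Cyp2c38 also has epoxygenase activity. Its brighter probe had a median of 4.66 in LIN livers (4.07 to 5.21), against 4.49 in PALM livers (3.68 to 4.85), with a difference of 0.24 ± 0.16 (95% interval −0.09 to 0.58, limma adjusted p = 0.641). The dimmer probe was above background on 5 of 8 LIN arrays and 6 of 10 PALM arrays. It had a median of −2.89 in LIN livers (−3.80 to −2.41), against −3.49 in PALM livers (−4.43 to −2.97). Its difference of 0.50 ± 0.20 did not pass over all probes (unadjusted p = 0.0202, limma adjusted p = 0.328). The probes did not follow each other over the 18 arrays (Pearson r = 0.003, Spearman rho = −0.05), so they cannot stand for each other.

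Cyp2c44, an epoxygenase of liver, kidney and vessels, had a median of 5.74 in LIN livers (4.79 to 6.01), against 5.44 in PALM livers (5.19 to 5.83). The difference was 0.18 ± 0.14 (95% interval −0.13 to 0.48, limma adjusted p = 0.731), and the lowest and the highest values of both groups together were LIN livers. Its spot was marked on 3 of 8 LIN arrays and 8 of 10 PALM arrays, so it had no test with marked spots left out. Cyp2c55, best known from the intestine and for its induction in liver by drugs, was dim, above background on 7 of 8 LIN arrays and 7 of 10 PALM arrays. It had a median of −3.35 in LIN livers (−4.66 to −2.27), against −3.64 in PALM livers (−4.57 to −2.84). Its difference of 0.34 ± 0.28 had the widest interval after Cyp2c39 (95% interval −0.24 to 0.93, limma adjusted p = 0.731).

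**Figure D3:**
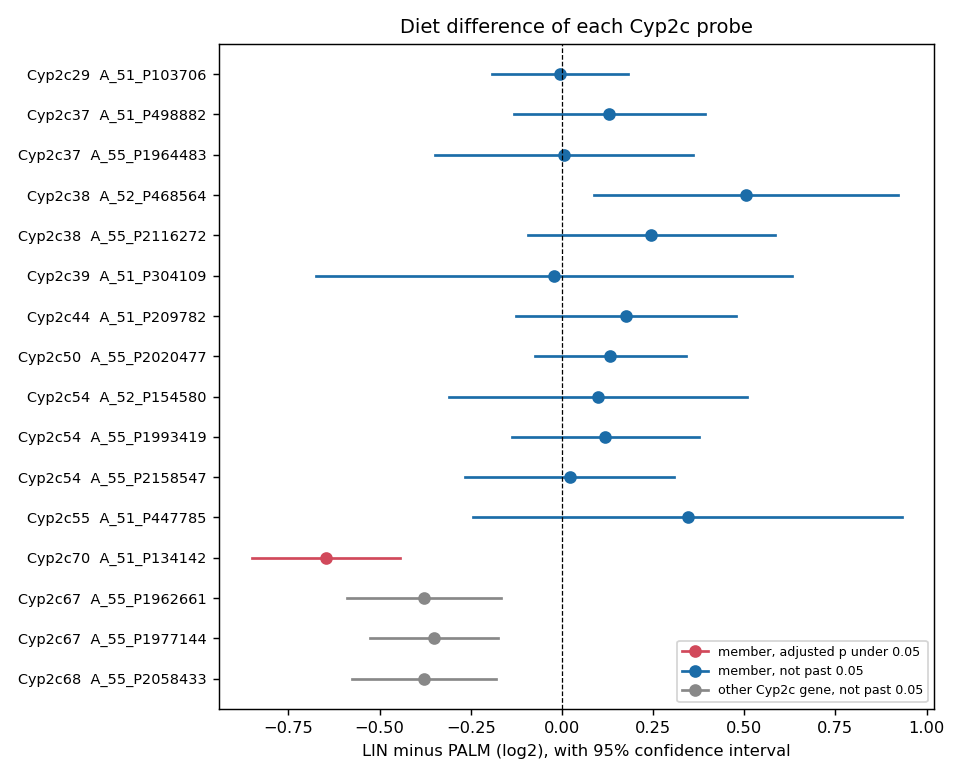
Difference LIN minus PALM (log2, with 95% confidence interval) of each tested Cyp2c probe with marked spots kept. The Cyp2c70 interval (−0.85 to −0.44) lies below 0 and is the one that passed. The intervals of the Cyp2c67 and Cyp2c68 probes also lie below 0 but did not pass over all probes. The interval of the dimmer Cyp2c38 probe (0.09 to 0.92) lies above 0 and did not pass either.

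Cyp2c39, which also hydroxylates retinoic acid, differed by −0.02 ± 0.31 (95% interval −0.68 to 0.63, limma adjusted p = 0.990), and its spread followed the slides rather than the diets. It is read by 1 probe at chr19:39642568-39642627 (plus strand), which likewise matched no other Cyp2c probe and is shown whole, with no part in capitals.
Cyp2c39 A_51_P304109: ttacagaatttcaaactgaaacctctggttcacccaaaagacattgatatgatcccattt

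On slides 1, 3 and 5, Cyp2c39 ranged from 3.18 to 3.68 in 4 LIN livers, against 3.06 to 3.76 in 6 PALM livers. On slides 2 and 4 it ranged from 2.09 to 2.47 in 4 LIN livers, against 1.89 to 2.30 in 4 PALM livers. The sets of slides did not overlap in either diet, and these sets were formed after the values had been seen. Slide accounted for 90.7% of the variance of Cyp2c39 within diets, beside a median of 37.7% over all genes, and 1.78% of genes had as large a share. The spot was unmarked and above background on all 18 arrays. Among the brightest probes of the other members this share ran from 10.9% for Cyp2c50 to 51.4% for Cyp2c38. Within slides the diet difference of Cyp2c39 ran from −0.18 to 0.36 and was positive on 3 of 5. What differed between the slides was not tested, and the labels do not say how mice were placed on them.

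**Figure D4:**
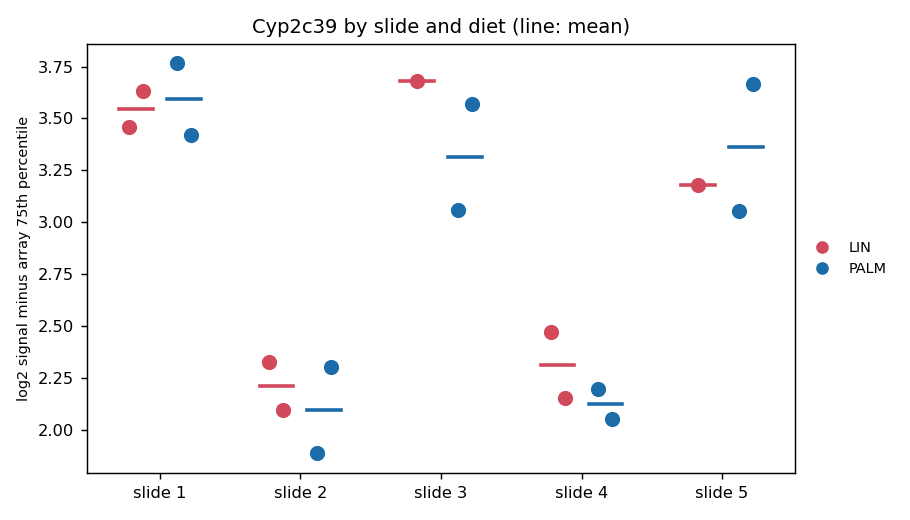
Cyp2c39 (log2 signal minus the 75th percentile of the array) by slide, LIN in red left of PALM in blue, with lines at the means. Both diets lie between 1.89 and 2.47 on slides 2 and 4 and between 3.06 and 3.76 on slides 1, 3 and 5.

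A call in Cyp2c70 and none in the others does not by itself show that they differ, so the diet difference of each member was set against that of every other in 36 pairs. The test was an exact two-sided permutation test over 43758 arrangements of the mice, with p adjusted over the pairs, and the smallest p it can give is 4.57e-05. In 8 pairs the diet differences differed, and 7 of these were pairs with Cyp2c70. Its difference was lower than that of Cyp2c44 by −0.82 (exact p = 6.86e-05, adjusted p = 0.00137), of Cyp2c50 by −0.78 (exact p = 0.000114, adjusted p = 0.00137) and of Cyp2c29 by −0.64 (exact p = 0.000229, adjusted p = 0.00206). Against Cyp2c39, with its wide spread, it did not pass (−0.63, exact p = 0.139, adjusted p = 0.454). The remaining pair was Cyp2c29 and Cyp2c50, whose diet differences were apart by −0.14 (exact p = 0.0102, adjusted p = 0.0460). That call was lost in 13 of 18 repeats that left out 1 array, and kept without LIN replicate 5, 6 or 8 or PALM replicate 2 or 10 (adjusted p = 0.0150 to 0.115).

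The members also varied among mice, most of them together. After the means of diet and slide were removed, Pearson r between pairs of members over the 18 arrays had a median of 0.60 and reached 0.96 for Cyp2c50 with Cyp2c54, 0.94 for Cyp2c29 with Cyp2c50 and 0.94 for Cyp2c29 with Cyp2c39. For the 8 pairs with Cyp2c70 it ran from −0.22 to 0.27, and for those with Cyp2c55 from −0.11 to 0.48. Without that removal the 36 pairs ran from −0.38 to 0.90 with a median of 0.30, and the highest was again Cyp2c50 with Cyp2c54 (Spearman rho = 0.89, and r = 0.85 without the 2 arrays farthest from the median). These correlations are descriptions: the points share arrays and scaling, and some members may share signal through like sequences. Genes outside the members were ranked by likeness to Cyp2c29 over the 18 arrays without that removal. The most alike were Aadac (Pearson r = 0.73, Spearman rho = 0.73), Hba-a1 (0.73 and 0.74) and Ndufv2 (0.72 and 0.69). On the same scale Cyp2c29 had r = 0.82 with Cyp2c50, 0.68 with Cyp2c54 and 0.07 with Cyp2c39. Without the 2 arrays farthest from the median of Cyp2c29, r was 0.77 for Aadac, 0.65 for Hba-a1 and 0.58 for Ndufv2. After the means of diet and slide were removed, over all 18 arrays, it was 0.79 for Aadac, 0.72 for Hba-a1 and 0.79 for Ndufv2.

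Of the other Cyp2c genes, Cyp2c67 and Cyp2c68 leaned the same way as Cyp2c70, and whether they passed depended on the setting. The Cyp2c67 probe that also lists Cyp2c40 and Cyp2c68 ranged from 5.02 to 5.45 with a median of 5.30 in LIN livers, and from 5.27 to 5.88 with a median of 5.62 in PALM livers. The groups overlapped in part. The difference was −0.35 ± 0.08 (limma adjusted p = 0.0518 over all probes). The Cyp2c68 probe, whose accessions name Cyp2c40 and Cyp2c69 too, ranged from 4.59 to 5.02 in LIN livers, against 4.69 to 5.45 in PALM livers (−0.38 ± 0.09, limma adjusted p = 0.0685). The Cyp2c67 probe shown above ranged from 5.12 to 5.55 in LIN livers, against 5.21 to 6.01 in PALM livers (−0.38 ± 0.10, limma adjusted p = 0.0920). As genes with marked spots kept, Cyp2c67 was called lower in 3 of 15 other settings (normexp, slide as a random block and the authors' deposited table) and Cyp2c68 in 5 of 14 (these 3, quantile normalization, and trend and robust), each also without PALM replicate 7, and Cyp2c68 without slide 4. Their differences ran from −0.49 to −0.30 over these settings and all fits without 1 array or slide. Which of the listed genes gave these signals cannot be told apart. As single probes over 20386 tested, 0 of these 3 were called by limma and 3 had an unadjusted p under 0.05, beside 0.907% and 11% of all probes, and 1 of the 13 probes of members was called. With slide as a random block all 3 were called (adjusted p = 0.0343 to 0.0492), beside 1.53% of probes, but with slide as a fixed block none was (adjusted p = 0.0885 to 0.106, 1.11% of probes). Marked spots were 17 of 18 and 14 of 18 for the Cyp2c67 and Cyp2c68 probes shown, and 0 of 18 for the probe that lists all of Cyp2c40, Cyp2c67 and Cyp2c68. Cyp2c65 and Cyp2c66 were above background on 1 array each and were not tested, and no probe was named Cyp2c69.

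The pathway around these enzymes was read from 7 lists, of which the other Cyp2c genes above are one. In all, 4 of 53 listed genes passed with marked spots kept, all 4 higher in LIN livers: Cyp3a11, Abcc3, Ephx1 and Rora. The same 4 passed of 49 with marked spots left out, though not under every alternative: Cyp3a11 was called in 15 of 15 other settings with marked spots kept, Abcc3 in 14, Ephx1 in 13 and Rora in 7. Of all genes tested, 0.683% were called higher.

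Of 12 other P450 genes, listed as possible fatty acid epoxygenases, 9 were tested and 0 passed in limma. At an unadjusted p under 0.05 there were 2, and the median difference was −0.07. Cyp2j6 had the smallest p, at 0.07 ± 0.29 in LIN livers, against 0.52 ± 0.30 in PALM livers (−0.45 ± 0.14, limma adjusted p = 0.168). Cyp2j5, an epoxygenase of liver and kidney, was at 0.32 ± 0.24 in LIN livers, against 0.25 ± 0.31 in PALM livers (0.07 ± 0.13, limma adjusted p = 0.899).

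Of 4 epoxide hydrolase genes, 3 were tested and 1 passed. Ephx1, the microsomal hydrolase, was at 7.01 ± 0.32 in LIN livers, against 6.28 ± 0.27 in PALM livers, 1.66-fold higher (0.73 ± 0.13, limma adjusted p = 0.0111). It was called in 13 of 15 other settings and without any 1 array, but not without slide 1, 3 or 4 (0.65 to 0.77 without 1 slide, highest adjusted p = 0.116). With marked spots left out it was called in 12 of 16 other settings. There the mean of a gene's probes, taken over the values left on each array, gave 0.22 for Ephx1, without a call (limma adjusted p = 0.893). With marked spots kept, the mean of its probes gave 0.76 and a call (limma adjusted p = 0.0108). Ephx2, the soluble hydrolase that opens most fatty acid epoxides, was at 6.16 ± 0.19 in LIN livers, against 5.98 ± 0.21 in PALM livers (0.18 ± 0.10, limma adjusted p = 0.556).

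None of the 8 genes for electron supply and haem passed in limma (1 at an unadjusted p under 0.05, median 0.10). Por, the reductase that serves all of these enzymes, differed by 0.17 ± 0.18 (limma adjusted p = 0.801), and Pgrmc1, a haem-binding partner of P450 enzymes, by 0.19 ± 0.08 (limma adjusted p = 0.402). None of the 9 genes that free fatty acids from phospholipids, activate and re-esterify them passed in limma either (2 at an unadjusted p under 0.05, median 0.08), with Acsl1, an acyl-CoA synthetase, at 0.25 ± 0.09 (limma adjusted p = 0.307). Every difference in these 2 lists lay between the 5th and the 95th percentile over all genes, −0.32 and 0.27.

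Of 15 transcription factors known to act on Cyp2c genes, 1 passed and the median was 0.02. Rora, an orphan nuclear receptor, was at 1.68 ± 0.18 in LIN livers, against 1.28 ± 0.19 in PALM livers (0.40 ± 0.09, limma adjusted p = 0.0428). This call was lost in 8 of 15 other settings with marked spots kept, without any 1 slide, and in 15 of 18 fits that left out 1 array (all but those without LIN replicate 6, PALM replicate 3 or PALM replicate 8), with differences from 0.33 to 0.44 throughout. The drug receptors that induce several Cyp2c genes did not pass: Nr1i2 (PXR) differed by 0.06 ± 0.22 and Nr1i3 (CAR) by 0.17 ± 0.10 (limma adjusted p = 0.960 and 0.604). Ppara, the receptor for fatty acids, differed by 0.15 ± 0.07 (limma adjusted p = 0.455). With marked spots left out it was read by a dimmer probe, which differed by 0.29 ± 0.09 and did not pass either (limma adjusted p = 0.165).

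Of 11 targets of CAR and PXR outside the Cyp2c genes, 7 were tested and 2 passed. In all, 4 had an unadjusted p under 0.05 in limma, and the median was 0.36. Cyp3a11, a drug-metabolising P450, was at 7.55 ± 0.13 in LIN livers, against 5.52 ± 0.45 in PALM livers, 4.09-fold higher (2.03 ± 0.16, limma adjusted p = 7.99e-07). Abcc3, a transporter that exports conjugates and bile acids into the blood, was at 4.99 ± 0.21 in LIN livers, against 3.93 ± 0.29 in PALM livers, 2.08-fold higher (1.06 ± 0.12, limma adjusted p = 0.000149). Drugs acting on these receptors also induce Cyp2c genes, among them Cyp2c29 (−0.01) and Cyp2c55 (0.34). Neither passed, nor did any other member apart from Cyp2c70, with differences from −0.02 to 0.34. Whether these receptors had a part in any of these differences was not tested.

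**Figure D5:**
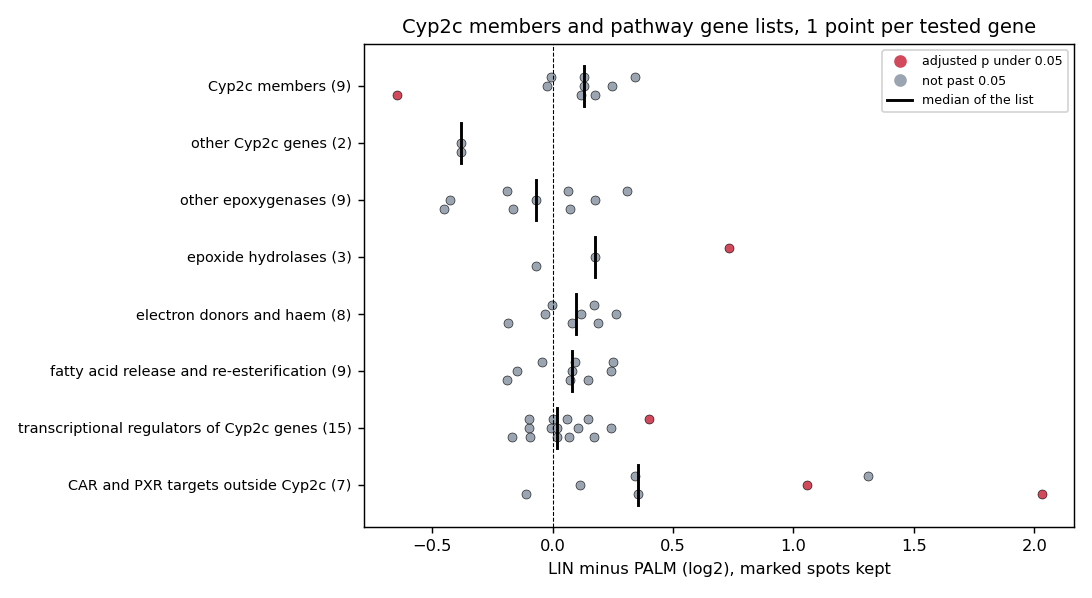
Difference LIN minus PALM (log2, marked spots kept) of the 9 Cyp2c members and of the tested genes of 7 pathway lists, 1 point per gene, red where the adjusted p was under 0.05, with a bar at the median of each list. Cyp2c70 is the 1 red point below 0, and the 4 others are Ephx1, Rora, Abcc3 and Cyp3a11.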

How the data were processed

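RNA from 18 livers was measured on 1-colour Agilent arrays, 1 per mouse, grouped by the titles of the samples. The authors, per the file headers, read the arrays with Agilent Feature Extraction 9.5.3.1, and the deposited intensity used is its processed signal, background-subtracted and not scaled between arrays. The deposited log2 value table of the authors served as an alternative only; how it was scaled is not given in the sources. Intensities were scaled to the 75th percentile of each array over non-control probes (117 to 204 intensity units) and logged, and repeat spots averaged. A probe was kept if well above background on at least 8 arrays with at least 6 values per diet; a gene was read by its brightest kept probe. The test of diet was limma (version 3.58.1, R 4.3.3, functions lmFit and eBayes) without covariates, two-sided, with adjusted p under 0.05 called. The procedure was checked on simulated data with independent noise. These held no slide effects and no missing spots, so the check does not cover either. The signal over background and the number of arrays limit the precision.

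Members, gene lists and tests were chosen with earlier results of these data known. Text names all members, up to 3 called genes of each list or else the 1 with the smallest p, the genes Ephx1, Ephx2, Por, Nr1i2, Nr1i3, Ppara and Cyp2j5, and the 3 genes most like Cyp2c29. Cyp7a1, Cyp8b1 and Cfd lie outside this rule and were added after their values had been seen. Names were updated through RefSeq (GRCm38.p6), for names only. Probe sequences and mm9 positions are those of the array files. All arrays were grouped into slides by the scan date in their headers, and those of slide 3 carry no barcode there. Alternatives covered scaling, background correction, filters, probe choice, slide or replicate number as a block, array weights, the authors' table, a 1.5-fold minimum, and leaving out arrays or slides. The replicate numbers were not taken as pairs of mice.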

Additional observations from a re-analysis of the deposited data

How the results depend on the processing

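Cyp2c70 kept its direction in all 37 other settings, from −0.71 to −0.57, and its call in 35. The count of members called with marked spots kept was 0 under a 1.5-fold minimum, without slide 1 and with marked spots left out, and 1 otherwise. With marked spots left out it was 0, but 1 with the authors' table, with marked spots kept and with 5 values per diet (Cyp2c70 each time); fewer values per diet or marked spots in use made it testable. Of member probes, 0 were called with marked spots left out. Of the 3 probes of Cyp2c67 and Cyp2c68, 3 were called with slide as a random block, and 0 to 3 when 1 array was left out (1 without LIN replicate 6, 1 without PALM replicate 3 and 3 without PALM replicate 7).

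With marked spots left out, 4 pathway genes were called. The count was 2 with the percentile over unmarked spots and 2 with the mean of a gene's probes. It was 1 with the replicate block and 1 under a 1.5-fold minimum. It was 0, 1, 2, 1 and 2 without slides 1 to 5, and 2 to 4 when 1 array was left out. Some of these falls are lost tests. Cyp3a11 could not be tested without slide 1 or 2, nor Abcc3 without slide 1, 2, 4 or 5. Abcc3 was tested in 12 of 18 fits without 1 array and called in all 12. With marked spots kept, both were called without each of the 5 slides (highest limma adjusted p = 0.00625). The cause of the other changes was not tested. Like counts hid other genes: quantile normalization and normexp called Cyp2c67, lower on linseed oil, in place of Rora, and the authors' table called Cyp2c67 and Cyp2c68, both lower, and not Rora. With marked spots left out, Rora was called in 6 of 16 other settings and in 3 of 18 fits without 1 array, and Cyp2c67 in 6 of 16 and 1 of 18. Pairs of members that differed were 10 with values centred within slides, 8 under quantile normalization and 6 to 8 when 1 array was left out.

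Signs turned for Cyp2c29 with array median scaling (0.0363), without slide 1 (0.0426) and without slide 5 (0.030), and ran from −0.0533 to 0.0409 when 1 array was left out. Signs turned for Cyp2c39 with array median scaling (0.0204), slide as a fixed block (0.0883) or random block (0.0295), the replicate block (0.0937) and without slide 5 (0.0499), and ran from −0.137 to 0.0892 when 1 array was left out. No call was made in any of these. Deviations of mice with the same replicate number correlated from −0.22 to 0.47, above 0.1 in 5 of 8 pairs. Mice of replicates 6 and 8 lay on different slides (0.009 and −0.22), and those of the other numbers shared a slide (0.09 to 0.47). Pairing by number and sharing of a slide therefore cannot be told apart, and the numbers were not taken as pairs. The replicate block changed no call of a member (Cyp2c70 −0.68, limma adjusted p = 0.0456).

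The dim probes of Cyp2c38 and Cyp2c55 were above background on 11 and 14 of 18 arrays.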

Other observations

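Dixon's test at the 95% level marked no mouse as far from its group in any of the 26 groups formed by 13 member probes and 2 diets. Chance alone marks about 1 in 20 groups. Marked spots per array ran from 238 to 424 on slide 1 and from 252 to 354 on slide 2, and from 1283 to 1703 on slide 4 and from 1431 to 1634 on slide 5, with both diets on each. Cyp2c39 was low on slides 2 and 4, and whether marked spots had a part in this was not tested.

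The pericentral hepatocyte markers, 7 of 8 measured, averaged 2.99 to 3.35 in LIN livers, against 3.04 to 3.52 in PALM livers, and 0 of 7 passed in limma, with 2 at an unadjusted p under 0.05 and a median difference of −0.05. The periportal markers, 7 of 7 measured, averaged 5.52 to 6.16 in LIN livers, against 5.49 to 5.98 in PALM livers, and 0 passed in limma, with 0 at an unadjusted p under 0.05 and a median difference of 0.09.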
